A study of Equus caballus with 6 samples.

Results

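The interleukin-1 family ligands IL1A, IL1B and IL18, the receptor antagonist IL1RN, the signalling receptor IL1R1 and the decoy receptor IL1R2 were followed in lamellar hoof tissue of horses with laminitis and in normal lamellar tissue. Every probe set whose single gene symbol in the platform annotation is one of these 6 genes was taken, which gave 8 probe sets for 6 of the 9155 genes with a symbol, out of 24016 probe sets besides controls, with 2 each for IL1A and IL1B and 1 each for the others. The lamellae are the interleaved epidermis and dermis that suspend the coffin bone inside the hoof wall, and laminitis is the disease in which that attachment fails. Total RNA of the right foot was read on bovine GeneChips, 1 array per sample, in 3 samples with laminitis, numbered 1, 3 and 4, and 3 normal ones, numbered 2, 3 and 4. The labels give no genotype, age, treatment or manner of onset, and do not say whether the samples are separate animals, so the spread behind each p-value is that of these samples and may be technical.

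As background, interleukin-1α and interleukin-1β both bind the receptor encoded by IL1R1, which then recruits the co-receptor IL1RAP and signals through MYD88 and the IRAK kinases to NF-kB. The antagonist encoded by IL1RN occupies the same receptor without recruiting the co-receptor, and IL1R2 binds the ligands but has no signalling domain, so both limit signalling. In skin, keratinocytes hold stores of interleukin-1α and of an intracellular form of the antagonist, while interleukin-1β and interleukin-18 are made as precursors that caspase-1 cleaves, and interleukin-18 acts through a receptor of its own that neither IL1RN nor IL1R2 blocks.

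The arrays resembled one another, with correlations of log2 signals over tested probe sets between 0.805 and 0.878, and their median signals were 86.7 to 96.6 in deposited linear units. Laminitis replicate 4 correlated at 0.822 and 0.848 with the other laminitis arrays and at 0.844 to 0.850 with the normal arrays. Of 6 measured basal keratinocyte markers, 4 had positive and 2 negative log2 differences. The groups did not overlap for 1, higher in laminitis, and for 0 lower, beside 7.41% higher and 8.15% lower of all 9155 genes. Their summed signal was 1340, 1700 and 2044 on laminitis arrays 1, 3 and 4, against 1670, 1405 and 816 on normal arrays 2, 3 and 4. Among them KRT14, named after its values were seen, had signals of 469, 503 and 509 on the laminitis arrays. On the normal arrays it had 609, 397 and 143, so its groups overlapped. To enter the test a probe set had to exceed the median of its array on at least 3 of 6 arrays, and 12519 did. By this rule 6 of the 8 probe sets, for 5 of the 6 genes, were tested, and the dimmer IL1B probe set and that of IL18 were not. Because the probes are bovine and the RNA is equine, signals of different probe sets were not set against each other.

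The interleukin-1 receptor antagonist had the largest log2 difference of the 8 probe sets on the deposited scale, and its signal was lower on every laminitis array than on every normal array. The brighter IL1B probe set lay the other way, above every normal array on each laminitis array, while IL1A and IL1R1 kept overlapping groups. None of the 6 tested probe sets passed in limma after Benjamini-Hochberg adjustment across the tested probe sets, where 0% were called higher and 0% lower in laminitis. At an unadjusted p under 0.05 limma gave 1 of the 6, IL1RN, where 4.82% of all tested probe sets were higher and 4.97% lower. Among the 6, the groups lay apart for 1 probe set higher and 1 lower in laminitis, where 7.89% of all tested probe sets lay apart as higher and 8.92% as lower. The median log2 difference of the 6 was -0.31, against -0.056 over all tested probe sets. IL1RN, IL1R2 and the dimmer IL1A probe set each exceeded the array median on all 3 normal arrays but on only 1 laminitis array. They thus entered the test through the normal tissue, and neither this median nor the count of lower probe sets is support for a direction.

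**Figure D1:**
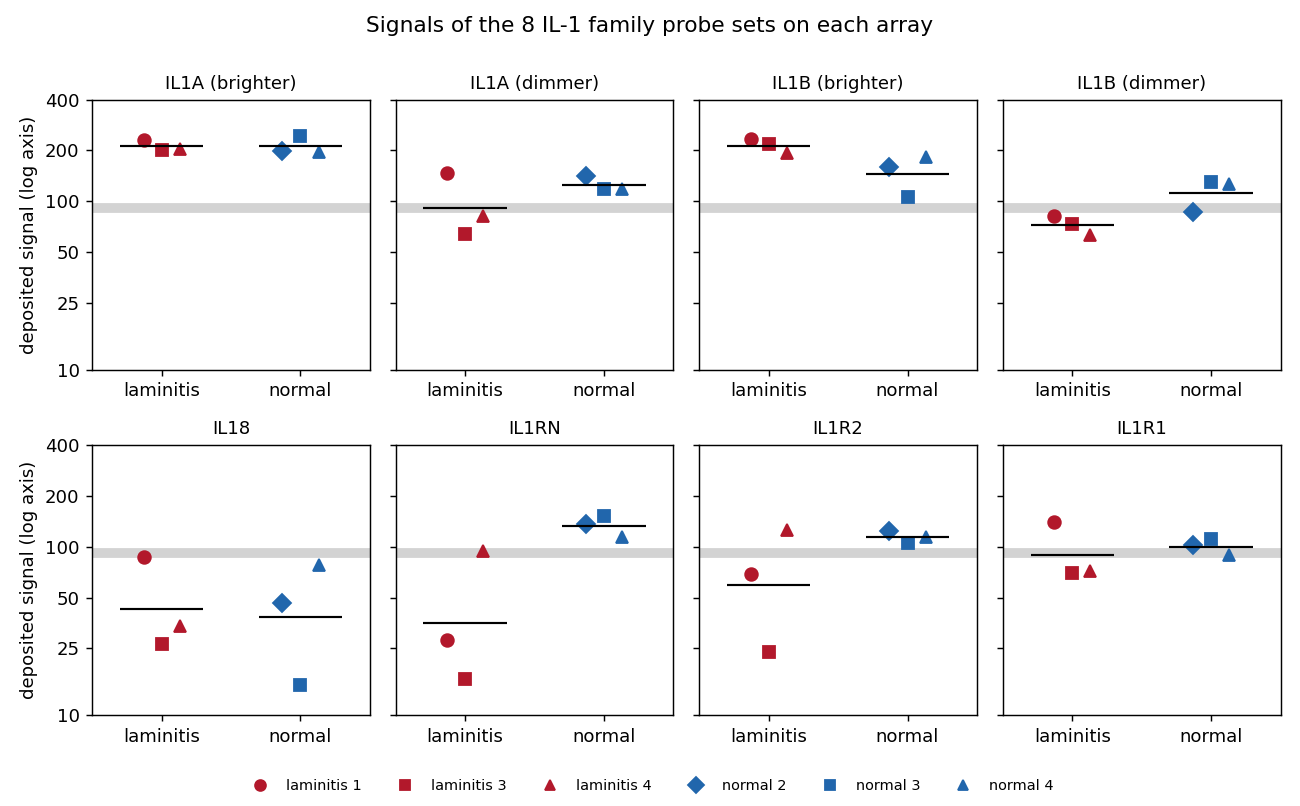
Deposited signal (log axis) of each of the 8 probe sets on each array, laminitis left and normal right; markers give the replicate, black lines the geometric means and the grey band the range of array medians. IL1RN on laminitis arrays sits at 28.0, 16.4 and 94.4, under the 3 normal arrays, and IL1B (brighter) sits above them at 233, 217 and 194.

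IL1RN, the antagonist, had signals of 28.0, 16.4 and 94.4 on laminitis arrays 1, 3 and 4, against 136, 153 and 114 on normal arrays 2, 3 and 4. The laminitis arrays were all below the normal ones, replicate 3 lowest and replicate 4 nearest to the normal arrays. The mean signal was 46.3 ± 42.1 in laminitis and 134 ± 19.5 in normal tissue (SD, n = 3 each), a 3.79-fold lower geometric mean in laminitis with a limma adjusted p of 0.424. The 95% interval of the log2 difference ran from -3.33 to -0.51. Ranked within its own array, which no scaling by a single factor can alter, the probe set stood at the percentiles 25.4, 14.7 and 50.3 on the laminitis arrays, against 60.8, 64.2 and 55.8 on the normal arrays. Log2 differences at or below that of IL1RN were found in 0.152% of tested probe sets and in 0.433% of all probe sets. These shares take no account of spread, and by limma p IL1RN ranked 427 of the 12519 tested probe sets. IL1RN was above the array median on all 3 normal arrays and on 1 laminitis array, so its place among the tested probe sets came from the normal tissue, and with signals this far below the median the size of its fold depends on background.

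IL1R2, the decoy receptor, had signals of 68.8, 23.9 and 127 on laminitis arrays 1, 3 and 4, against 124, 105 and 114 on normal arrays 2, 3 and 4. The groups overlapped, since laminitis replicate 4 was the highest of all 6 arrays while replicates 1 and 3 were below every normal array. The log2 difference was -0.94 ± 0.56 (SE, n = 3 per group, limma adjusted p 0.621), with a 95% interval from -2.27 to 0.38. It was -0.29 without laminitis replicate 3 and -1.49 without laminitis replicate 4. IL1RN and IL1R2 thus had the same order on the laminitis arrays, lowest on replicate 3 and highest on replicate 4. Replicate 3 was also the lowest laminitis array for both IL1A probe sets, IL18 and IL1R1, so that part of the order is not particular to them.

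The spread among laminitis arrays was larger than among normal arrays for 4 of the 6 tested probe sets. Over all tested probe sets the median SD of log2 signals was also larger among laminitis arrays, 0.32, than among normal arrays, 0.26. The share of all tested probe sets with the larger laminitis spread was not counted, so the 4 of 6 is not read as particular to these genes. On the log2 scale IL1RN had an SD of 1.29 among laminitis arrays and 0.21 among normal arrays, and IL1R2 had 1.22 among laminitis arrays and 0.12 among normal arrays. The dimmer IL1A probe set had 0.62 among laminitis arrays and 0.15 among normal arrays, and IL1R1 had 0.56 among laminitis arrays and 0.16 among normal arrays. The brighter probe sets went the other way, with 0.13 among laminitis arrays and 0.40 among normal arrays for IL1B, and 0.11 among laminitis arrays and 0.17 among normal arrays for IL1A. The 4 probe sets with the larger laminitis spread were below the array median on 2 of 3 laminitis arrays each, and the part of dim signal in the spread was not tested.

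IL1B, the inducible agonist of phagocytes and other cells, was read by 2 probe sets that disagreed. The brighter had signals of 233, 217 and 194 on laminitis arrays 1, 3 and 4, against 159, 107 and 183 on normal arrays 2, 3 and 4, with means of 215 ± 19.7 in laminitis and 149 ± 39.0 in normal tissue (SD, n = 3 each). Its lowest laminitis array was little above the highest normal array. The 95% interval of its log2 difference reached from -0.041 to 1.15 around 0.55 (limma adjusted p 0.541), and without normal replicate 3, the lowest array, the difference was 0.33.

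The dimmer IL1B probe set had signals of 81.3, 72.8 and 62.9 on the laminitis arrays, against 86.6, 130.5 and 126 on the normal arrays. Here each laminitis array was below each normal array, the reverse of the brighter probe set, with a log2 difference of -0.64 ± 0.26 (SE, n = 3 per group) in the fit with no filter on dim probe sets. It was above the array median on 2 of 6 arrays, both normal, so no call was made. The brighter minus the dimmer log2 signal averaged 1.57 ± 0.05 in laminitis and 0.37 ± 0.60 in normal tissue (SD, n = 3 each). Among 2913 genes with several probe sets, 42, or 1.44%, had a pair that lay apart in opposite directions, and 53.5% had log2 differences of both signs. Over all 24016 probe sets, the groups lay apart for 14.6%, namely 6.32% as higher and 8.32% as lower in laminitis, and for 3 of the 8 described here, 1 as higher and 2 as lower.

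RefSeq's gene table for a horse assembly, read for names and gene order only, matched 6 of 6 members, 5 by symbol. IL1B was matched as a synonym of 2 horse genes that are direct neighbours, the nearer of them next to IL1A. IL1RN lies beyond 7 further protein-coding genes on the same chromosome, and IL1R1 and IL1R2 are direct neighbours. Signal from the 2 horse IL1B genes cannot be told apart here, and which of them each bovine probe set reads was not tested.

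IL1A, the agonist stored in keratinocytes, was bright on all arrays by its brighter probe set, with signals of 232, 200.4 and 205 on laminitis arrays 1, 3 and 4, against 199, 243 and 196 on normal arrays 2, 3 and 4. The groups overlapped almost completely. The log2 difference was 0.0052 ± 0.19 (SE, n = 3 per group, limma adjusted p 0.994), and its 95% interval, from -0.45 to 0.46, was the narrowest of the 8.

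The dimmer IL1A probe set had signals of 148, 64.1 and 81.4 on the laminitis arrays, against 141, 118 and 118 on the normal arrays. Laminitis replicates 3 and 4 were below every normal array and replicate 1 was above them all. Its log2 difference was -0.45 ± 0.33 (SE, n = 3 per group, limma adjusted p 0.682), -0.79 without laminitis replicate 1 and -0.19 without laminitis replicate 3.

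IL18, a caspase-1 product that stimulates interferon-γ production, was dim throughout. Its signals were 87.3, 26.6 and 33.8 on laminitis arrays 1, 3 and 4, against 46.7, 15.1 and 78.4 on normal arrays 2, 3 and 4. The spread within each group was larger than the difference between them, and 1 of 6 arrays was above its median. In the fit with no filter the log2 difference was 0.17 with a 95% interval from -1.57 to 1.90, and it was -0.50 without normal replicate 3 and 0.69 without normal replicate 4.

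IL1R1, the signalling receptor, had signals of 139.8, 70.1 and 72.3 on laminitis arrays 1, 3 and 4, against 103, 111 and 88.9 on normal arrays 2, 3 and 4. Laminitis replicate 1 was the highest and the other laminitis arrays the lowest of the 6. The log2 difference was -0.17 ± 0.31 (SE, n = 3 per group, limma adjusted p 0.873), with a 95% interval from -0.90 to 0.55, and it was 0.0019 without laminitis replicate 3. Its probe set, both IL1A probe sets and that of IL18 had the same order on the laminitis arrays, highest on replicate 1 and lowest on replicate 3.

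**Figure D2:**
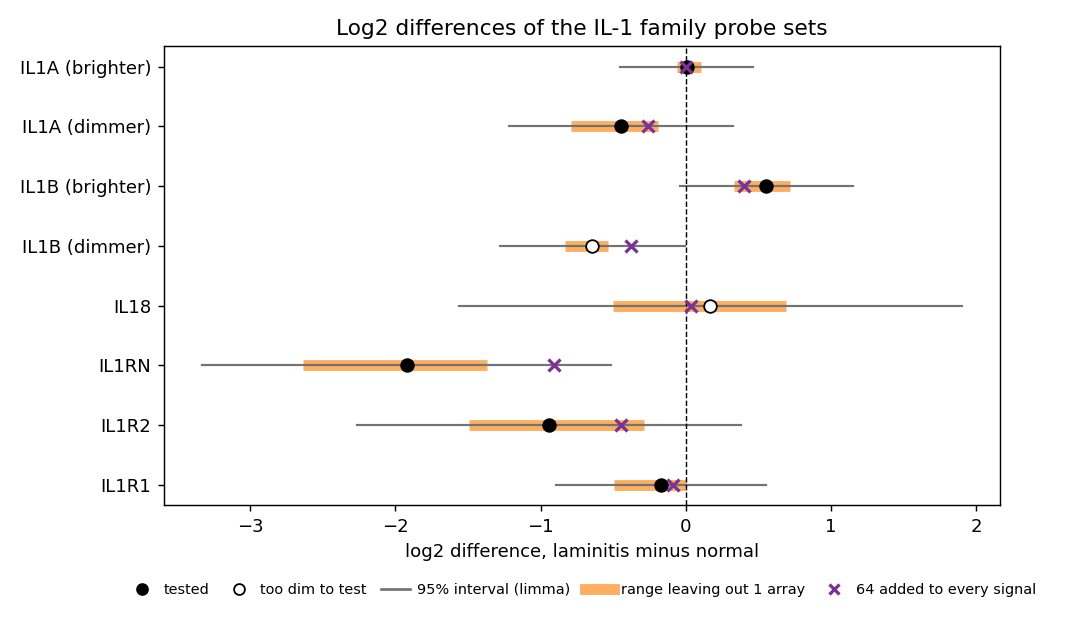
Log2 difference, laminitis minus normal, of each probe set (filled, tested; open, too dim to test), with the 95% interval of limma (grey), the range when 1 array is left out (orange) and the value with 64 added to every signal (cross). IL1RN at -1.92 is the farthest from 0, and its cross is at -0.91.

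Agonists were set against antagonists within each array, as the log2 signal of the brighter agonist probe set minus that of the regulator. Since levels of different probe sets are not comparable, only the shift of this value between groups is read, and it has no test because the genes were chosen with earlier results known. IL1B minus IL1RN was 3.06, 3.73 and 1.04 on laminitis arrays 1, 3 and 4, against 0.22, -0.52 and 0.69 on normal arrays 2, 3 and 4. All laminitis arrays were above all normal arrays, replicate 4 by the least. This had to follow, since the brighter IL1B probe set lay apart as higher and IL1RN as lower, so it is no further result. The means of IL1B minus IL1RN were 2.61 ± 1.40 in laminitis and 0.13 ± 0.61 in normal tissue (SD, n = 3 each), a shift of 2.48. By themselves IL1RN had a log2 difference of -1.92 and the brighter IL1B probe set 0.55.

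IL1A minus IL1RN was 3.05, 3.61 and 1.12 on the laminitis arrays, against 0.55, 0.67 and 0.78 on the normal arrays, a shift of 1.93 in log2 that is nearly all that of IL1RN. Against the decoy, IL1B minus IL1R2 had means of 1.85 ± 1.29 in laminitis and 0.36 ± 0.33 in normal tissue, and IL1A minus IL1R2 had 1.84 ± 1.19 in laminitis and 0.89 ± 0.28 in normal tissue (SD, n = 3 each). For both pairs with IL1R2 the groups overlapped, through laminitis replicate 4. Without laminitis replicate 3 the shift against IL1R2 was 0.83 for IL1B and 0.33 for IL1A, where it was 0.95 for IL1A over all arrays and 1.52 without laminitis replicate 4. With the dimmer IL1B probe set, a choice made after the data were seen, the shift against IL1RN was 1.28 and against IL1R2 0.30, and with the dimmer IL1A probe set they were 1.47 and 0.50. IL18 minus IL1RN shifted by 2.09 with overlapping groups, or by 1.32 without normal replicate 3. IL18 was too dim to test, IL1RN does not block its receptor, and IL1RN by itself had a log2 difference of -1.92. The pair is thus not read as an agonist against its antagonist.

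**Figure D3:**
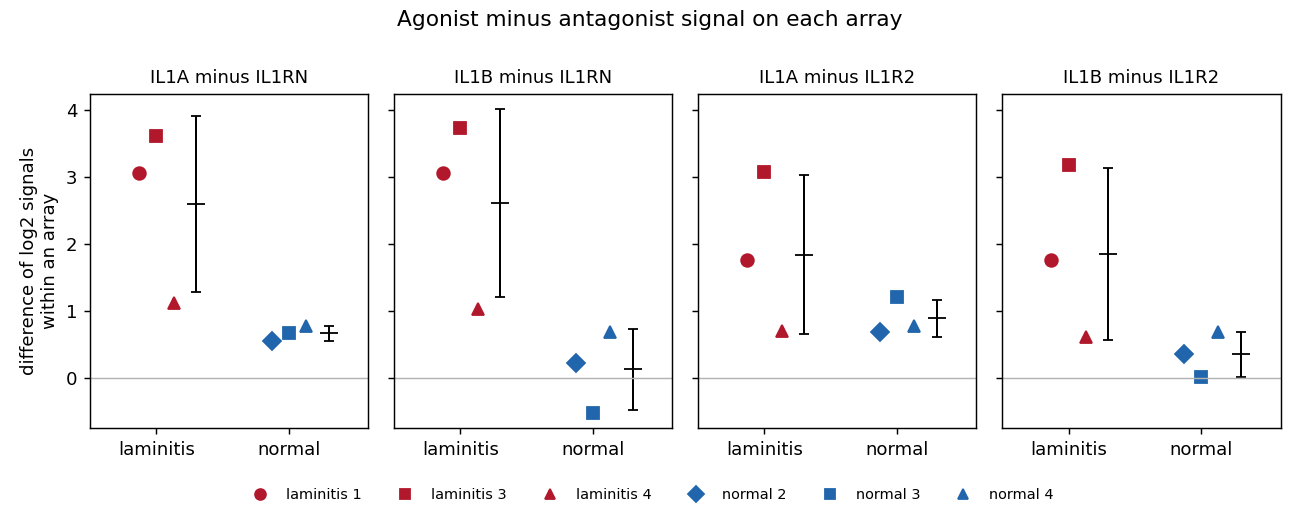
Log2 signal of IL1A or IL1B (brighter probe set) minus that of IL1RN or IL1R2 on each array, laminitis left and normal right, with mean and SD as bars. Laminitis replicates 1 and 3 sit at 3.05 or more against IL1RN, replicate 4 at 1.04 and 1.12, and normal arrays between -0.52 and 0.78.

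Cell type markers were read beside these values, since in whole tissue fewer cells of a type and less RNA per cell cannot be told apart. Of 10 measured neutrophil markers, 2 lay apart as higher in laminitis, the calprotectin subunits S100A8 and S100A9, and 3 as lower, the granule protein genes ELANE, MPO and CAMP, where 7.41% of all 9155 genes lay apart as higher and 8.15% as lower. The summed signal of the 10 was 13222, 10038 and 1685 on laminitis arrays 1, 3 and 4, and lay between 722 and 1223 on normal arrays. Most of it on laminitis arrays 1 and 3 was S100A8 and S100A9. Without these 2, a split made after the data were seen, the sum of the other 8 markers was 465, 390 and 420 on laminitis arrays 1, 3 and 4, against 603, 602 and 569 on normal arrays 2, 3 and 4. Each of these laminitis sums was below each normal one, and the order of the laminitis arrays differed from that of the full sum. ELANE, a granule protease, had a log2 difference of -1.05 ± 0.34 (SE, n = 3 per group, limma adjusted p 0.445).

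Of 6 measured suprabasal and cornifying keratinocyte markers 0 lay apart, beside 7.41% higher and 8.15% lower of all genes, with sums of 721 to 1027 in laminitis and 794 to 999 in normal tissue. Of 7 monocyte and macrophage markers 1 lay apart as higher, CYBB, and 1 as lower, CSF1R, against the same shares of all genes, with sums of 704 to 882 in laminitis and 689 to 734 in normal tissue. The part of these cell types, or of neutrophils, in the IL1RN and IL1R2 values was not tested.

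Of the other ligands, receptors and binding proteins of the family, 4 of 17 listed names were measured and 2 tested, with 0 called by limma in either direction, adjusted or at an unadjusted p under 0.05. The co-receptor IL1RAP had a log2 difference of 0.071 ± 0.22 and IL18R1, the interleukin-18 receptor chain, -0.41 ± 0.34, with 0.16 by its other probe set (SE, n = 3 per group). Probe sets of IL1RAP too dim to test gave 0.88 and 0.27. IL33, an alarmin of barrier cells, was too dim to test and named after its values were seen, with signals of 35.1, 47.7 and 53.8 on laminitis arrays, against 20.6, 81.7 and 76.7 on normal arrays. By its brightest probe set, none of these genes showed a separation of the groups.

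Of genes that cleave or release the ligands, 8 of 20 listed names were measured and 6 tested, 3 with positive and 3 with negative log2 differences and 0 called by limma, or 0 higher and 1 lower at an unadjusted p under 0.05, where 5.27% of tested genes were higher and 4.52% lower. CASP1, which cleaves both precursors, had 0.51 ± 0.34, the pore former GSDMD 0.30 ± 0.70 and the ATP receptor P2RX7 0.020 ± 0.26, with -0.095 by its other tested probe set (SE, n = 3 per group). ELANE had the smallest p of the list among lower genes, followed by the calpain genes CAPN2 at -0.44 ± 0.26 and CAPN1 at -0.21 ± 0.38. The list's median was -0.097, against -0.029 over all 6151 tested genes. It was -0.34 without laminitis replicate 1, -0.041 without normal replicate 2 and -0.17 without normal replicate 4. With the genes above the median on all 6 arrays it was 0.27, but only CASP1 and P2RX7 of the list were left. CASP4, an inflammatory caspase too dim on 4 arrays to be tested and named after its values were seen, had signals of 138, 208 and 16.3 on laminitis arrays 1, 3 and 4, against 17.4, 19.7 and 17.8 on normal arrays. For CASP4 laminitis replicate 4 was thus below every normal array, at dim signals. Its place varied by gene, and for IL1RN and S100A9 it kept with the other laminitis arrays, beyond every normal array.

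Of the receptor signalling genes, 21 of 27 listed names were measured and 17 tested, 4 with positive and 13 with negative log2 differences and 0 called by limma, or 0 higher and 2 lower at an unadjusted p under 0.05, against the same 5.27% and 4.52%. Their median was -0.23, or -0.13 without normal replicate 2 and -0.15 when centred on the median. It was -0.12 with the replicate number as a block, which rests on replicates 3 and 4 alone. The groups lay apart as lower for 3 of 17, TOLLIP, MAPK14 and TRAF6, where 8.36% of tested genes did so, and as higher for 0. TOLLIP, an adaptor that restrains IRAK signalling, had signals of 119, 81.9 and 126 on laminitis arrays, against 226, 204 and 197 on normal arrays (log2 -0.96 ± 0.23, limma adjusted p 0.322). MAPK14, the p38α kinase, had -0.71 ± 0.29, with -0.63 and -0.051 by probe sets too dim to test. TRAF6, the ubiquitin ligase downstream of the IRAK kinases, had -0.54 ± 0.23, but its other tested probe set gave 0.83. Among positive differences PELI1, an IRAK-binding ubiquitin ligase, had 0.47 ± 0.33, with 0.30 by its other tested probe set. The adaptor TAB2 had 0.17 ± 0.28, with -0.17 by its other tested probe set, and the ubiquitin-conjugating variant UBE2V1 0.049 ± 0.19. MYD88, the adaptor of the receptor, was too dim to test and named after its values were seen, with signals of 17.2 to 38.1 in laminitis and 26.5 to 79.9 in normal tissue.

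Genes that interleukin-1 is known to induce had mostly positive log2 differences. Of 33 listed names 29 were measured and 18 tested, 13 with positive and 5 with negative log2 differences with 0 called by limma over all probe sets and 8 higher and 0 lower at an unadjusted p under 0.05, again against 5.27% and 4.52%. The groups lay apart as higher for 7 of 18, where 8.7% of tested genes did so, but 3 of the 7, ADAMTS4, PTX3 and ZFP36, exceeded the array median on no normal array and so entered the test through the laminitis arrays, and the count is no support for a direction. With no filter, 9 of 29 lay apart as higher and 1 as lower, where 7.41% and 8.15% of 9155 genes did so. The median was 0.90 among tested genes and 0.38 with no filter, and since the list was written with earlier results of these data known, and many stimuli besides interleukin-1 induce its genes, neither is independent evidence of its direction.

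CCL2, a monocyte chemoattractant, had signals of 636, 728 and 524 on laminitis arrays 1, 3 and 4, against 226, 206 and 205 on normal arrays 2, 3 and 4. Laminitis replicate 4, where IL1RN was nearest to normal, was above every normal array for CCL2. Its other tested probe set gave a smaller log2 difference, 0.84 with a limma adjusted p of 0.468, against 1.55 here. The aggrecanase ADAMTS4 and the NF-kB inhibitor NFKBIA also kept laminitis replicate 4 with its group, at 293 and 901 against normal maxima of 70.7 and 408. These 3 genes were named for their small p, which favours genes whose laminitis arrays lie together, so the place of replicate 4 is no separate result. For TNFAIP6 of the same list, named after its values were seen, replicate 4 had 115, below the normal maximum of 133, with 317 and 517 on laminitis arrays 1 and 3. CCL2, ADAMTS4 and NFKBIA had limma adjusted p of 0.131, 0.136 and 0.136. With the filter set at all 6 arrays above the median, limma called CCL2 at an adjusted p of 0.0265 and NFKBIA at 0.0371 among 8468 probe sets. LIF, an interleukin-6 family cytokine, had -0.25 ± 0.21, the adhesion molecule VCAM1 -0.29 ± 0.25 and the stromelysin MMP3 -0.37 ± 0.37 (SE, n = 3 per group). Probe sets of MMP3 too dim to test gave -0.66 and -1.46. IL6 and SOD2, too dim to test and named after their values were seen, lay apart as higher. MMP1, too dim and named in the same way, lay apart as lower, with signals of 76.7, 50.3 and 82.9 on laminitis arrays, against 117, 94.0 and 158 on normal arrays. IL6, a cytokine of the acute phase, had signals of 30.6, 113 and 64.8 on laminitis arrays, against 20.0, 7.76 and 11.3 on normal arrays, with its highest normal value below its lowest laminitis value.

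**Figure D4:**
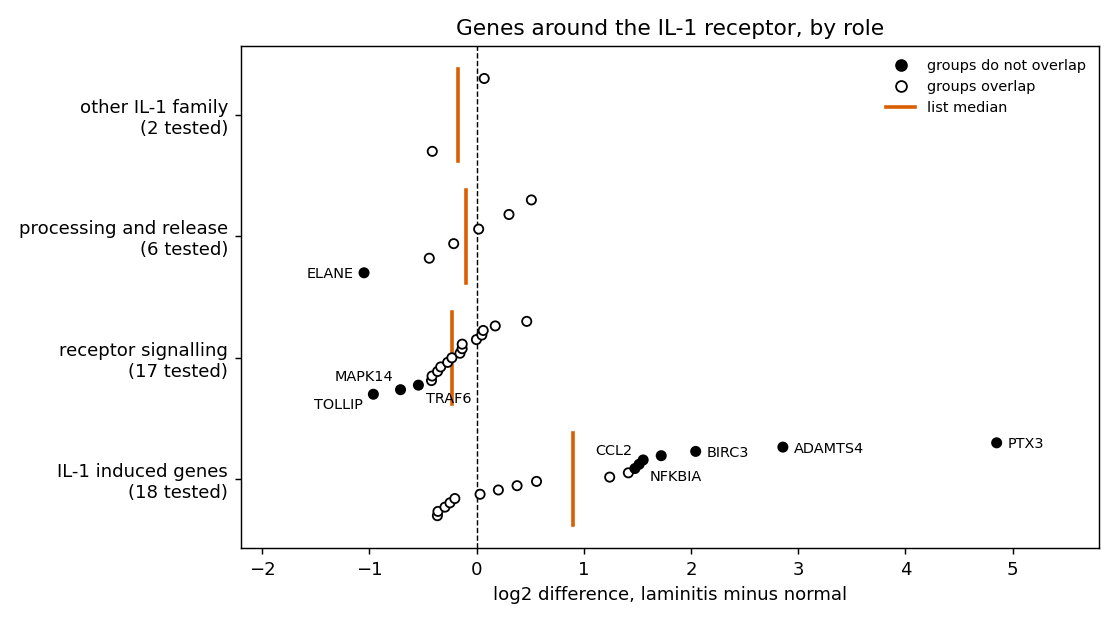
Log2 difference, laminitis minus normal, of each tested gene in 4 lists around the interleukin-1 receptor (filled, groups do not overlap; open, groups overlap; orange, list median). The induced genes reach 4.85 at PTX3 with a median of 0.90, while the receptor signalling genes have a median of -0.23.

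The genes most like IL1RN over the 6 arrays by Pearson correlation of log2 signals were PLPBP, CD247 and ATP5PO, at 0.995, 0.994 and 0.992. Those most like the brighter IL1B probe set were RBM28, TBKBP1 and PURB, at 0.995, 0.993 and 0.992. They were picked as the highest of 6150 genes over 6 arrays that share the group difference, and 40 genes exceeded 0.95 for IL1RN and 25 for IL1B, so the values are a description with no p. CD247, the T cell receptor zeta chain, had signals of 131, 94.9 and 217 on laminitis arrays 1, 3 and 4, against 235, 273 and 226 on normal arrays. The laminitis arrays were in the order of IL1RN, which the choice by correlation favours. Of 7 measured T and B lymphocyte markers 1 lay apart as higher, CD4, and 1 as lower, CD2, beside 7.41% higher and 8.15% lower of all genes. The part of T cells in these values was not tested.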

How the data were processed

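Transcript levels of 3 laminitis and 3 normal samples, grouped by their titles, were used as deposited by the authors, as linear intensities per probe set and array. The submitters' processing notes name GCRMA, with no version, but GCRMA yields log2 values, and these are linear, fall far below 1 and have near-equal trimmed means, so the step that made them is unknown. Detection calls were not used here. Bovine gene symbols were taken from the annotation of the platform, which can be old: of 24016 probe sets, besides 112 controls, 13292 had 1 symbol, 86 several and 10638 none. Log2 signals with no offset were compared by lmFit and eBayes in limma 3.58.1 (R 4.3.3) with a two-sided test, and p was adjusted by Benjamini-Hochberg over 12519 tested probe sets with a threshold of 0.05. The prior had 3.02 degrees of freedom. Differences are laminitis minus normal, and the brightest tested probe set stood for a gene in the lists. The model was also run on simulated data with independent normal noise, which does not model background at dim signals. The share of changes it recovered there is not given here. The members, the lists and the tests were chosen with earlier results of these data known. Named list genes are the 3 of smallest p in each direction, and others are marked as chosen later. Replicate numbers 3 and 4 occur in both groups, but the titles do not say that they pair samples, and deviations of same-numbered arrays correlated at -0.017 and -0.031, so the main fit has no block. Alternatives were other filters, normalizations, offsets and variance models, the block, and leaving out each array. Replicate 1 occurs only in laminitis and replicate 2 only in normal tissue, so with the block the differences rest on replicates 3 and 4. Probe and protein sequences were not used here.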

Additional observations from a re-analysis of the deposited data

How the results depend on the processing

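The number of arrays limits the precision, and detection calls would be needed to say which dim signals exceed background. No member probe set passed limma's threshold under any alternative run, and the adjusted p of IL1RN ranged from 0.0945 without laminitis replicate 4 to 0.769 without normal replicate 3. IL1RN, IL1R2, the dimmer IL1A and both IL1B probe sets kept their direction under every alternative in which they could be computed. The brighter IL1A probe set, near 0, changed sign to -0.022 with array weights and -0.10 with the replicate number as a block, and ranged from -0.060 to 0.10 with 1 array left out. With 1 array left out IL1R1 ranged from -0.50 to 0.0019, IL18 from -0.50 to 0.69, and the dimmer IL1B probe set from -0.83 to -0.54. The replicate block, whose differences rest on replicates 3 and 4 alone, moved the dimmer IL1B probe set to -0.92 and IL18 to -0.20. It called no probe set, but with so few arrays it is a weak check on the calls. Adding 64 to every signal brought the log2 difference of IL1RN to -0.91, and the shift against it to 1.30 for IL1B and 0.91 for IL1A. With 1 array left out the IL1B shift against IL1RN ranged from 1.92 without laminitis replicate 3 to 3.26 without laminitis replicate 4. With the dimmer IL1B probe set it was 1.28 against IL1RN and 0.30 against IL1R2. Over all tested probe sets, 0 were called, and 6 as higher with all 6 arrays above the median, 4 with an intensity trend and robust variance, and 0 to 2 with 1 array left out (2 without laminitis replicate 4). Of these, 2 and 1 stood for genes of the 4 lists, CCL2 and NFKBIA with the first and CCL2 with the second. Fewer probe sets were tested with the first; otherwise the cause was not tested. The median of the induced genes was 0.29 with all 6 arrays above the median, a filter that drops ADAMTS4, PTX3 and ZFP36 among others. With the block it was 1.15.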
